A study of Arabidopsis thaliana with 30 samples.

Results

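Arabidopsis thaliana seedlings homozygous for a mutation in ING1 were compared with seedlings homozygous for a mutation in SPC, using 3 RNA-seq libraries of each genotype. These 6 libraries were taken by their labels from 30, which cover the Col-0 wild type and 9 mutant genotypes at 3 libraries each (ada2a, ada2b, gcn5, ing1, spc, eaf6, sdrl and the double mutants ada2a spc and spc ing1). Whole seedlings of 12 days were used, raised at 22 °C on Murashige and Skoog plates under 16 h of light and 8 h of darkness without any treatment. The labels call every mutant homozygous, name no allele or line, and give no background other than Col-0 for the wild type. The test covered 21868 of the 32548 genes in the table, those with a signal of 10 or more in 3 or more of the 30 libraries. Nothing in the labels tells whether replicate libraries were grown separately, so a p-value here reflects library-to-library spread, which could be technical.

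GCN5 is a histone acetyltransferase that acts in multi-subunit complexes and marks the nucleosomes of transcribed genes. In plants it works in a SAGA-type complex shared with other eukaryotes, which holds ADA2B, and in a plant-specific complex that holds ADA2A together with SPC, ING1, SDRL and EAF6. ING1 carries a PHD finger, a small zinc-binding fold that in ING proteins binds histone H3 methylated at lysine 4. The comparison therefore sets the loss of one subunit of the plant-specific complex against the loss of another, and shows where the 2 mutants carry different transcriptomes.

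The ING1 transcript itself (AT3G24010, chr3:8675905-8678286, TAIR10.1) was low in the libraries labelled ing1. Its normalised signal, a read-derived value already scaled between libraries by the authors, was 172, 175 and 131 in the 3 ing1 libraries and 634, 780 and 652 in the 3 spc libraries. Wild-type levels were 714, 733 and 674, so the spc libraries lay around the wild type and all ing1 libraries lay far below both groups. The difference was -2.11 ± 0.14 (log2(signal + 1), ± SE; limma adjusted p = 5.05e-11), which left 23.1% of the spc level. In the double mutant spc ing1 the values were 159, 104 and 174, in the range of ing1 alone.

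The reference annotation gives no gene the name SPC, and the labels name no locus for it. Of all loci in the table, 1 had its highest value in the 9 libraries that carry the spc mutation (1122) below 0.5 of its lowest value in the other 21 (2641), a share chosen after values were seen, whereas 0 loci passed the share of 0.25 set first. That locus is AT1G77800, a PHD finger family protein gene of 21 exons (chr1:29253332-29260617, TAIR10.1) that overlaps the annotated locus AT1G09757. It read 3394, 3203 and 3379 in ing1, 1084, 1107 and 1122 in spc, and 831, 838 and 847 in the double mutant. The difference between ing1 and spc was 1.59 ± 0.11 (limma adjusted p = 1.05e-10). Because the locus was picked on these same values, their separation and this p-value describe the pick and are no separate evidence.

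Among loci picked after their values were seen, 3 more set the genotypes apart by size. Their p-values likewise describe the pick and are no separate evidence. AT2G01422, an annotated non-coding RNA of a single exon (chr2:183940-184734), read 11.8, 12.1 and 18.8 in ing1 but 1758, 1875 and 2353 in spc, a difference of -7.05 ± 0.81 (limma adjusted p = 4.80e-06). The wild type lay between these groups at 320, 185 and 89.2, and the double mutant spread widely over 188, 893 and 1289. Its mean was 8.51 in ada2a spc, so the high level was not shared by all genotypes that carry the spc mutation. Low means were not particular to ing1 either: 8.28 in sdrl, 4.78 in eaf6 and 0.957 in gcn5, beside 44.2 in ada2a and 93.7 in ada2b. With a pseudocount of 16 in place of 1 the AT2G01422 difference was -6.05. AT1G27565, an uncharacterised protein-coding locus (chr1:9574550-9575189), read 84.6, 140 and 105 in ing1 against 4.11, 2.28 and 0.0113 in spc, and was listed at 0 in all 3 wild-type libraries. Its double-mutant values of 1.29, 7.34 and 2.05 were on the side of spc, and its difference of 5.40 ± 0.83 (limma adjusted p = 2.05e-04) rests on spc values near 0: with a pseudocount of 16 it was 2.78. AT5G11330, annotated as a FAD/NAD(P)-binding oxidoreductase (chr5:3617138-3618913), read 2440, 2136 and 2195 in ing1 and 773, 1127 and 897 in spc, a difference of 1.29 ± 0.11 (limma adjusted p = 1.03e-08). Its wild-type mean was 2543 ± 176 (SD, n = 3), and it was also low in ada2a, where the mean was 918.

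**Figure D1:**
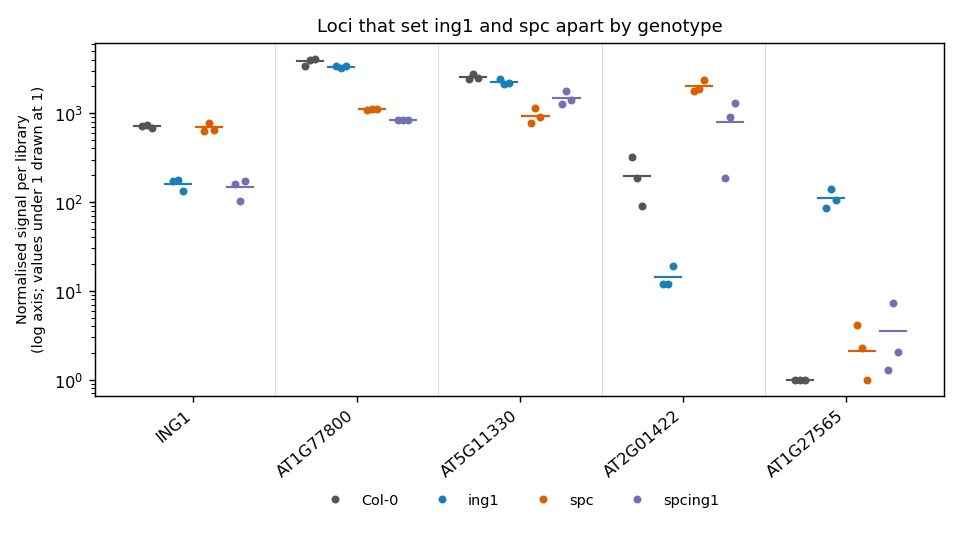
Normalised signal (log axis; values under 1 drawn at 1) of 5 loci in each library of Col-0, ing1, spc and the double mutant; each point is a library and each bar a mean of 3. ING1 is low in ing1 and the double mutant, AT1G77800 is low in spc and the double mutant, and AT2G01422 lies near 14.2 in ing1 and 1995 in spc.

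The transcripts of HAG1, ADA2A, ADA2B and the locus taken for EAF6 were close in the 2 mutants. HAG1, the gene of GCN5, read 453, 590 and 454 in ing1 and 564, 473 and 507 in spc, with a difference of -0.05 ± 0.12 (limma adjusted p = 0.895). ADA2A differed by -0.16 ± 0.21 (limma adjusted p = 0.801) and ADA2B by 0.02 ± 0.07 (limma adjusted p = 0.954), though both overlap other annotated loci. AT4G14385, annotated as a NuA4-type acetyltransferase subunit and the locus taken here for EAF6, differed by -0.20 ± 0.11 (limma adjusted p = 0.405); it averaged 118 in eaf6 and 825 in Col-0. Over the 17 tested genes of GCN5 complexes, ING1 fell and 0 rose (0 by limma at an unadjusted p under 0.05). Among 27 genes of H3K4 methylation and its readers, the other call was JMJ18, a demethylase of this mark, at -0.46 ± 0.11 (limma adjusted p = 0.0139), which read 1315, 1094 and 1283 in ing1 and 1714, 1523 and 1828 in spc. JMJ18 overlaps another annotated locus and lost its call without the ing1 library numbered 2 (ing1 2, adjusted p = 0.121), spc 1 (0.0532) or spc 3 (0.0951).

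Across all tested genes, 521 differed at an adjusted p below 0.05 (2.38%; limma, Benjamini-Hochberg), of which 200 were higher in ing1 (0.915%) and 321 were lower (1.47%). At least 2-fold differences were rarer, with 29 genes higher (0.133%) and 69 lower (0.316%). The median difference was 0.49 among the higher genes and -0.56 among the lower ones, beside -0.01 over all tested genes. At an unadjusted p under 0.05 (limma), 3142 of the 21868 tested genes differed in either direction, the background for such counts in the lists below. The 3 ing1 values and the 3 spc values did not overlap in 520 of the 521, a separation that 20.4% of all tested genes showed. The number of calls fell to 254 without ing1 2, 288 without ing1 3, 288 without spc 2 and 314 without spc 3, and the 29 higher genes to 18 without ing1 3.

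**Figure D2:**
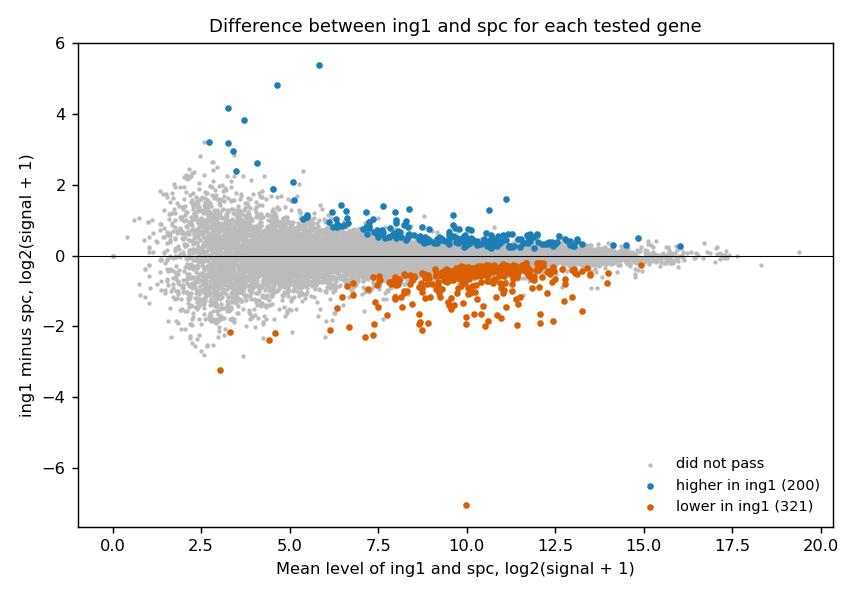
Difference between ing1 and spc against the mean level of both, each on the log2(signal + 1) scale, with a point per tested gene. The 200 genes higher in ing1 and the 321 lower ones are coloured, and the lower ones reach larger differences at high levels.

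The 6 libraries held similar totals of 39205551 to 40350925. Pairs of libraries correlated at 0.982 to 0.984 within a genotype and at 0.978 to 0.980 between the genotypes, and the first principal component (27.8% of the variance) put the ing1 libraries on one side and the spc libraries on the other. Marker genes of pollen summed to 242 to 271 in ing1 and 215 to 236 in spc, with 7 and 6 of 11 at 0, those of seeds to 302 to 411 and 331 to 396, with 9 and 5 of 20 at 0, and those of floral organs to 379 to 441 and 393 to 464, with 3 of 13 at 0 in each. Photosynthesis genes summed to 3437170 to 3561160 in ing1 and 3140540 to 3384570 in spc (1 of 35 at 0), and root hair genes to 21531 to 22923 and 18025 to 20394 (0 of 20 at 0). Both sums, like that of the pollen markers, were higher in ing1 without overlap. Root identity genes (13967 to 15072 and 13263 to 14385) and shoot apex genes (22230 to 23135 and 22412 to 23594) overlapped between the genotypes. In whole seedlings, fewer cells of a type and less RNA per cell cannot be told apart, and the part of these sums in the results was not tested.

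Stress-induced zinc finger factors had the highest share of genes lower in ing1 among the lists described. All 10 tested genes of the ZAT and SZF zinc finger list had lower means in ing1, and 8 of them fell, with a list median of -1.12 beside -0.01 for all tested genes. STZ (ZAT10, a repressor induced by salt, cold and drought) read 664, 589 and 508 in ing1 and 2068, 2442 and 2530 in spc. Every ing1 library lay below every spc library, and the difference was -2.00 ± 0.24 (limma adjusted p = 6.82e-06). SZF1, a CCCH zinc finger gene of the salt response, read 5372, 4659 and 4624 against 15823, 12571 and 15370, a difference of -1.57 ± 0.21 (limma adjusted p = 4.67e-05). Its relative CZF1 read 1851, 1666 and 1880 against 4026, 3699 and 4463 and fell by 1.17 ± 0.15 (limma adjusted p = 2.67e-05). RHL41 (ZAT12), a factor of high-light and oxidative stress responses, read 200, 232 and 149 against 539, 631 and 657 and fell by 1.66 ± 0.26 (limma adjusted p = 2.63e-04). None of these 4 genes overlapped between the genotypes. ZAT7 had the greatest difference of the list, -2.31 ± 0.59 (limma adjusted p = 0.0294), from 42.7, 45.3 and 46.5 to 175, 209 and 315 in spc, but lost its call without any of the 6 libraries (adjusted p = 0.0508 to 0.136). The other called members were ZF1, ZF3 and ZAT6, and ZF2 (-0.55 ± 0.18, limma adjusted p = 0.107, or 0.0293 in the fit of only the 6 libraries) and the low-level ZAT11 (-0.58 ± 0.73, limma adjusted p = 0.787) did not pass. The 8 calls became 5 without ing1 1, 4 without ing1 3, 4 without spc 2 and 5 without spc 3.

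**Figure D3:**
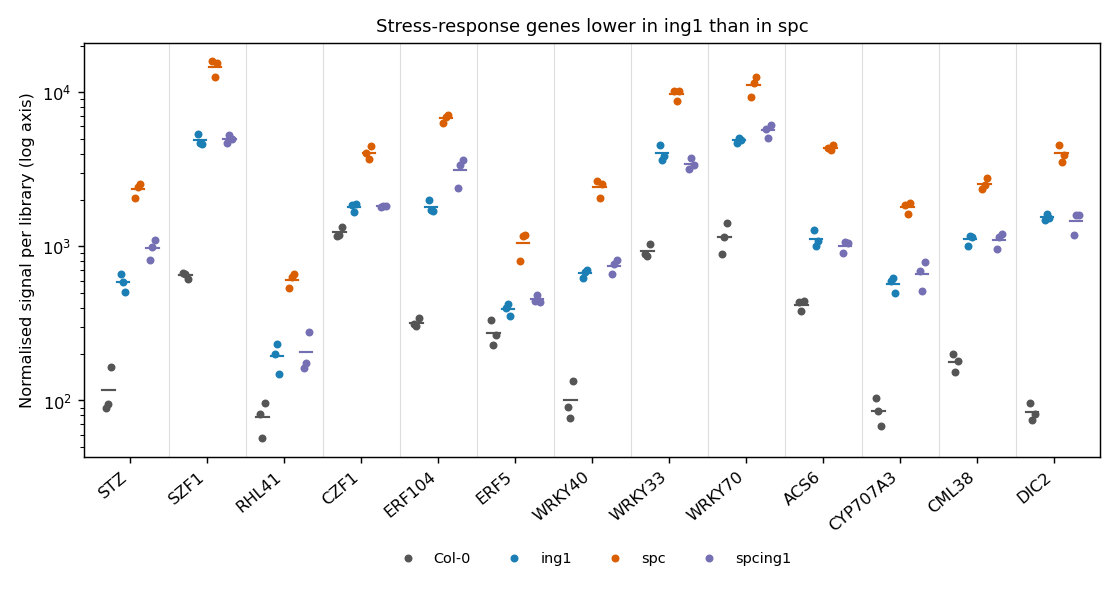
Normalised signal (log axis) of 13 stress-response genes in each library of Col-0, ing1, spc and the double mutant; each point is a library and each bar a mean of 3. All 13 genes are higher in every spc library than in every ing1 library, and the wild type is below the spc libraries for each (mean STZ signal: Col-0 117, ing1 587, spc 2347).

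Of 25 tested ERF and DREB stress factors, 5 fell and 0 rose, with a median of -0.34, and at an unadjusted p under 0.05 (limma) 13 were lower and 0 higher. ERF104, an ethylene response factor that acts in flagellin signalling, read 1995, 1716 and 1700 in ing1 and 6359, 6873 and 7066 in spc. No ing1 library came near the spc range, and the difference was -1.91 ± 0.21 (limma adjusted p = 2.74e-06). ERF5, a regulator of defence and leaf growth, read 400, 425 and 354 against 804, 1176 and 1190 and fell by 1.41 ± 0.20 (limma adjusted p = 5.72e-05). ERF11, a repressor of the family, fell by 1.24 ± 0.28 (limma adjusted p = 0.0117), from a mean of 353 ± 34.6 in spc to 149 ± 9.09 in ing1 (SD, n = 3 each). ERF2 fell by 0.56 ± 0.13 (limma adjusted p = 0.0175) and is the neighbour of ERF5 on chromosome 5. ERF13 had a large but uncertain difference of -1.56 ± 0.53 (limma adjusted p = 0.127), which passed in the fit of only the 6 libraries (0.0210) and with a pseudocount of 16 (0.0106). The count of 5 became 3 without ing1 1, ing1 2, ing1 3 or spc 2, and 2 without spc 3. ERF11 lost its call without spc 3 (adjusted p = 0.0657), and ERF2 without every library but spc 1 (0.0527 to 0.131).

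WRKY factors, which bind W-box elements in defence genes, gave 5 falls and 0 rises among 27 tested members, with a median of -0.24, and 8 lower and 1 higher at an unadjusted p under 0.05 (limma). WRKY40, which represses part of the immune response, read 620, 677 and 707 in ing1 and 2668, 2070 and 2546 in spc and fell by 1.85 ± 0.25 (limma adjusted p = 4.67e-05). WRKY33, which drives camalexin synthesis, read 4543, 3621 and 3860 against 10145, 8710 and 10204 and fell by 1.28 ± 0.20 (limma adjusted p = 2.54e-04). WRKY54 and WRKY70, a pair that acts in salicylic acid responses, fell by 1.74 ± 0.25 (limma adjusted p = 8.23e-05) and 1.17 ± 0.19 (limma adjusted p = 3.92e-04). The spc libraries were the higher ones in each of these 4 genes, without overlap, and WRKY70 stood at 4704, 5058 and 4921 against 9297, 11465 and 12486. WRKY40 and WRKY33 overlap other annotated loci, and the use of strand in the counting is not given in the sources used here, so their values may include reads of those loci.

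Regulators of salicylic acid and immunity followed in 5 of 22 tested members, with a median of -0.23 and 0 rises (0 at an unadjusted p under 0.05, limma). NPR1 and NPR3, receptors of salicylic acid, fell by small amounts of 0.33 ± 0.07 (limma adjusted p = 0.00745) and 0.41 ± 0.09 (limma adjusted p = 0.00766). NPR3 read 2994, 2772 and 2634 in ing1 and 3593, 3546 and 4039 in spc, without overlap. CBP60G, an activator of salicylic acid synthesis, fell by 0.73 ± 0.16 (limma adjusted p = 0.00967). NIMIN1, which binds NPR1, read 80.3, 101 and 119 against 230, 428 and 324 and fell by 1.67 ± 0.40 (limma adjusted p = 0.0187). PR1, the usual output gene of the pathway, was low and erratic, at 2.22, 14.1 and 0 in ing1 and 31.8, 0.393 and 10.3 in spc, with no difference that passed (limma adjusted p = 0.817). The list kept 3 calls without ing1 1, 1 without ing1 2, 2 without ing1 3, 2 without spc 2 and 1 without spc 3. Left-out libraries ended the calls of NPR1 (ing1 2, ing1 3 or spc 2, adjusted p = 0.0534 to 0.0740), NPR3 (ing1 3 or spc 3, 0.0598 and 0.0686), CBP60G (ing1 2 or spc 3, 0.05004 and 0.0643) and NIMIN1 (ing1 1, ing1 2, spc 2 or spc 3, 0.0644 to 0.115).

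Abscisic acid and drought genes gave 9 falls and 0 rises among 29 tested members, with a median of -0.50, and 17 lower and 0 higher at an unadjusted p under 0.05 (limma). CYP707A3, a hydroxylase that breaks abscisic acid down, read 593, 621 and 494 in ing1 and 1848, 1612 and 1908 in spc and fell by 1.65 ± 0.24 (limma adjusted p = 7.03e-05). HAI1, a phosphatase that dampens abscisic acid signalling, read 370, 383 and 408 against 720, 738 and 764 and fell by 0.93 ± 0.14 (limma adjusted p = 1.23e-04). HB-7, a homeodomain factor induced by water deficit, read 1392, 1335 and 1353 against 2192, 2195 and 2159 and fell by 0.68 ± 0.09 (limma adjusted p = 1.69e-05). For these 3 genes the spread within each genotype was small beside the gap between them. ABF1, a bZIP factor of the pathway, fell by 0.33 ± 0.06 (limma adjusted p = 0.00300), and it overlaps another locus. The list thus held an enzyme of hormone breakdown and a negative regulator beside positive ones.

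The calls among ethylene genes went both ways, and those among calmodulin-like and mitochondrial stress genes were lower in ing1. ACS6, an ACC synthase that makes the precursor of ethylene, read 1286, 1000 and 1078 in ing1 and 4317, 4196 and 4560 in spc and fell by 1.96 ± 0.20 (limma adjusted p = 4.95e-07). Its family member ACS8 went the other way, at 360, 416 and 460 against 252, 220 and 227, with a difference of 0.81 ± 0.20 (limma adjusted p = 0.0238), lost without ing1 2, ing1 3, spc 2 or spc 3 (0.0844 to 0.132). ACS6 and ACS8 were the only calls among 20 genes of ethylene synthesis and signalling, whose median was 0.14, with 7 higher and 1 lower at an unadjusted p under 0.05 (limma). Of 11 touch-responsive and calmodulin-like genes, CML38 fell by 1.19 ± 0.17 (limma adjusted p = 5.77e-05), from a mean of 2529 ± 212 in spc to 1111 ± 89.3 in ing1 (SD, n = 3 each). CML37 fell by 2.02 ± 0.51 (limma adjusted p = 0.0277), a call lost without every library but spc 2 (0.0687 to 0.107), and TCH2, at 2497, 2525 and 2528 against 4114, 3669 and 3979, did not pass (limma adjusted p = 0.115) except in the fit of only the 6 libraries (1.07e-04). Of 12 mitochondrial stress genes, 3 fell: DIC2, a dicarboxylate carrier (1487, 1628 and 1520 against 4529, 3549 and 3939, -1.37 ± 0.30, limma adjusted p = 0.00829), BCS1, an ATPase of the outer membrane (-1.06 ± 0.14, limma adjusted p = 4.67e-05), and UCP5, another carrier (-0.59 ± 0.15, limma adjusted p = 0.0237). UCP5 lost its call without ing1 1, ing1 2, spc 1 or spc 3 (0.0509 to 0.141). The median of these 12 genes was -0.05, with 4 higher and 8 lower in ing1, and 1.47% of all tested genes were called lower. NDB4 (1.61 ± 0.82) and AOX1D (0.90 ± 1.06) went the other way and did not pass (limma adjusted p = 0.376 and 0.767).

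The 12 largest falls with a symbol also held BAP1, NUDT4 and PBP1. BAP1, a C2-domain protein that restrains cell death, read 68.2, 51.4 and 83.1 in ing1 and 189, 313 and 290 in spc and fell by 1.94 ± 0.27 (limma adjusted p = 6.58e-05). NUDT4, a Nudix hydrolase, read 447, 370 and 415 against 1831, 1268 and 1675 and fell by 1.94 ± 0.24 (limma adjusted p = 1.15e-05). PBP1, a calcium-binding partner of the kinase PINOID, fell by 1.88 ± 0.28 (limma adjusted p = 1.00e-04) and overlaps another locus. None of the 3 overlapped between the genotypes, which the rule for the 12 largest falls required.

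Single-exon genes were more frequent among the genes lower in ing1 than among all tested genes, as a description without a test. A single exon was annotated for 110 of the 321 (34.3%), against 28 of the 200 higher genes (14%) and 17.8% of all tested genes. Their median gene length was 1847 bases, beside 2719 for the higher genes and 2319 for all. In the 250 bases before the annotated start, on either strand, the core CGCGT of the site bound by CAMTA factors, calmodulin-binding activators of rapid stress responses, occurred in 13.4% of the lower genes, 7% of the higher genes and 7.36% of all tested genes. The W-box core TTGAC occurred in 53.0%, 48.0% and 45.1%, the evening element AAATATCT in 8.72%, 5% and 4.94%, the G-box CACGTG in 9.03%, 5.50% and 7.18%, the DRE core CCGAC in 12.1%, 17.5% and 12.6%, and the GCC-box GCCGCC in 3.43%, 0.5% and 1.95%. Motifs were searched one by one and may overlap, and each match is a description of these letters only.

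The CAMTA core was found in the upstream stretch of 2 of the 12 largest falls, ZAT7 and NUDT4, and of 1 of the 12 largest rises, ACS8. These stretches are shown with that of RHL41, a stress zinc finger gene that kept its call without any 1 library, to let the setting of the core be read in genes that differed in both directions. Those of the zinc finger genes STZ, SZF1 and CZF1 held 0 matches and are not shown. The stretches shown come from the RefSeq TAIR10.1 assembly and run 5′ to 3′ on the strand of the gene. They carry CGCGT or its reverse complement ACGCG in capitals, and ACGCGT holds both. The coordinates are chr3:16926956-16927075 on the minus strand for ZAT7, and, on the plus strand, chr1:6299549-6299668 for NUDT4, chr5:24102694-24102813 for RHL41 and chr4:17751886-17752005 for ACS8.
ZAT7: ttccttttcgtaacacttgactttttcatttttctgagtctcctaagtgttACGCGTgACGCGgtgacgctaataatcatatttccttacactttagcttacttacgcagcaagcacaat
NUDT4: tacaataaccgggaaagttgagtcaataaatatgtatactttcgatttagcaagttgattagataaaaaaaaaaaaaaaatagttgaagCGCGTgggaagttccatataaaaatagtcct
RHL41: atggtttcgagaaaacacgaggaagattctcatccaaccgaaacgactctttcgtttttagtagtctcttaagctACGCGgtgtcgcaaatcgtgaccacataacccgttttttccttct
ACS8: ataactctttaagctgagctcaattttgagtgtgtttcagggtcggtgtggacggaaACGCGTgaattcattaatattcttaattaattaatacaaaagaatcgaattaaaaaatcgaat
The ZAT7 stretch holds 3 matches, of which 2 overlap, the ACS8 stretch 2 overlapping ones, and NUDT4 and RHL41 hold 1 each, with first bases 31 and 45 bases before the annotated start.

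The genes higher in ing1 included several of growth hormones. GH3.3, which conjugates auxin to amino acids, read 312, 549 and 574 in ing1 and 186, 197 and 175 in spc, a difference of 1.31 ± 0.19 (limma adjusted p = 6.83e-05). YUC8, a flavin monooxygenase of auxin synthesis, read 285, 376 and 393 against 150, 145 and 152, a difference of 1.22 ± 0.19 (limma adjusted p = 2.06e-04). In both genes the lowest ing1 library was ing1 1, and it still lay above every spc library. IAA19, a repressor of auxin response, was higher by 0.56 ± 0.15 (limma adjusted p = 0.0423), but not without ing1 1, ing1 2, ing1 3, spc 2 or spc 3 (0.0741 to 0.186). Of 36 auxin response genes 2 rose and 0 fell (median 0.13; 7 higher and 3 lower at an unadjusted p under 0.05, limma). Of 20 genes of auxin synthesis and transport 1 rose and 0 fell (median 0.14; 5 higher and 0 lower at an unadjusted p under 0.05). The auxin response count was 1 without ing1 2, ing1 3, spc 2 or spc 3.

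Brassinosteroid genes gave 3 rises and 0 falls among 23 tested members, with a median of 0.15, and 9 higher and 2 lower at an unadjusted p under 0.05 (limma). BR6OX2, which catalyses the last step of brassinolide synthesis, read 943, 1050 and 1062 in ing1 and 684, 633 and 468 in spc, a difference of 0.79 ± 0.13 (limma adjusted p = 3.97e-04). BEE3, a growth factor of the bHLH family induced by the hormone, read 2255, 2075 and 2421 against 1542, 1492 and 1603, a difference of 0.54 ± 0.07 (limma adjusted p = 3.38e-05). Neither gene overlapped between the genotypes. DWF4, the hydroxylase of an early and limiting step, was higher by 0.40 ± 0.09 (limma adjusted p = 0.00764), except without ing1 2 (0.0547), and without spc 1 the list also held 1 fall. The list member PHI-1 went the other way. Its difference of -0.64 ± 0.31 did not pass (limma adjusted p = 0.354) but did in the fit of only the 6 libraries (0.0264). In the gibberellin list, the DELLA repressor GAI read 3614, 3485 and 3445 against 2623, 2650 and 2970 and was higher by 0.36 ± 0.07 (limma adjusted p = 0.00514). The receptor gene GID1A fell by 0.32 ± 0.08 (limma adjusted p = 0.0193), a call lost without ing1 1, ing1 3, spc 1 or spc 2 (0.0506 to 0.104), and the list of 25 held no other call.

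The calls among cell wall genes went both ways, and those among photosynthesis genes were higher in ing1. Over all tested genes, 0.915% were called higher and 1.47% lower. Of 45 xyloglucan-modifying enzymes and expansins, 3 rose and 1 fell, with a median of 0.05. XTH15 read 1124, 1102 and 1025 in ing1 and 872, 562 and 553 in spc (0.74 ± 0.16, limma adjusted p = 0.00815), and XTH8 read 2462, 2633 and 2484 against 1985, 1924 and 1707 (0.43 ± 0.09, limma adjusted p = 0.00572). Both stayed apart between genotypes, yet XTH15, which overlaps another locus, lost its call without spc 2 or spc 3 (0.0702 and 0.0734) and XTH8 without spc 3 (0.0545). XTH4 (0.31 ± 0.09, limma adjusted p = 0.0477) and XTR6 (-0.70 ± 0.19, limma adjusted p = 0.0422) lost theirs without any of the 6 libraries (0.0827 to 0.178 and 0.0591 to 0.175). Of 34 light-harvesting and photosystem genes 2 rose, LHCB2.3 (0.41 ± 0.10, limma adjusted p = 0.0196) and LHCB4.2 (0.28 ± 0.08, limma adjusted p = 0.0423), both of which overlap other loci and belong to families with similar copies. The median of these 34 was 0.08, with 9 higher and 1 lower at an unadjusted p under 0.05 (limma). The LHCB2.3 call was lost without ing1 2, ing1 3, spc 2 or spc 3 (0.0866 to 0.126) and the LHCB4.2 call without any of the 6 (0.0731 to 0.166). The 16 Rubisco and Calvin cycle genes gave 0 calls and a median of -0.11, with 1 gene lower at an unadjusted p under 0.05 (limma).

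Of the other genes among the 12 largest rises with a symbol and a mean of at least 50, CRL2, a gene named for its likeness to cinnamoyl-CoA reductase, read 448, 389 and 394 in ing1 and 214, 212 and 197 in spc, a difference of 0.98 ± 0.13 (limma adjusted p = 2.31e-05). Its wild-type mean of 895 ± 84.9 lay above both mutants, and its double-mutant mean of 214 ± 31.3 lay within the spread of spc (SD, n = 3 each). COBL2, a COBRA-like cell wall gene, read 137, 110 and 144 against 56.9, 72.5 and 57.3 (1.06 ± 0.19, limma adjusted p = 0.00135). TLP5, a Tubby-like gene, had the greatest fold among these 12, 2.09 ± 0.55 (limma adjusted p = 0.0332), at low levels of 80.5, 41.3 and 41.5 against 7.31, 11.4 and 17.3, and was not called without any library but spc 3 (0.0714 to 0.152). HEI10, a meiotic crossover factor that overlaps other loci, was higher by 1.26 ± 0.28 (limma adjusted p = 0.00967), but not without ing1 1, spc 1 or spc 3 (0.0510 to 0.0642).

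**Figure D4:**
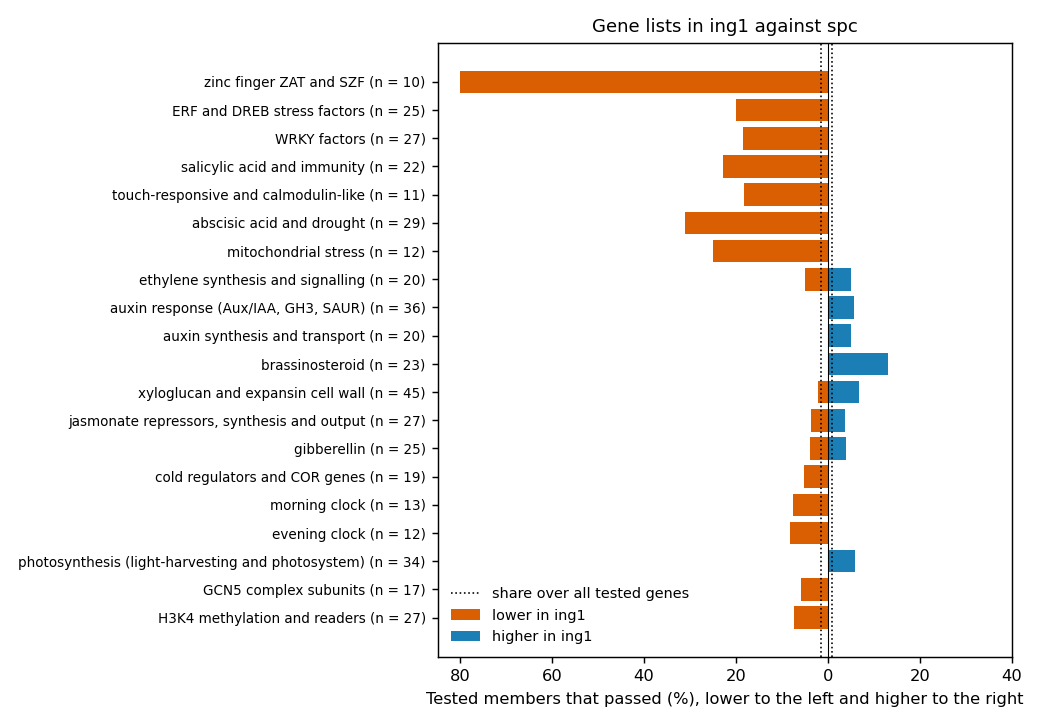
Share of the tested members of 20 gene lists that were lower (left) or higher (right) in ing1 at an adjusted p below 0.05, with dotted lines at the shares over all tested genes (1.47% lower and 0.915% higher). The ZAT and SZF list reaches 8 of 10 lower, and brassinosteroid genes 3 of 23 higher.

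Each of the 2 clock lists and the cold list gave a single call, and the jasmonate list 1 each way. Over all tested genes, 2.38% were called. ELF4, an evening gene of the clock, read 3758, 3771 and 3813 in ing1 and 5090, 4677 and 4830 in spc and fell by 0.36 ± 0.08 (limma adjusted p = 0.00682), the single call among 12 evening genes, of which 6 were lower and 0 higher at an unadjusted p under 0.05. The morning gene RVE2 fell by 0.50 ± 0.13 (limma adjusted p = 0.0384), the single call among 13 (3 lower and 0 higher at an unadjusted p under 0.05), which was lost without ing1 2, ing1 3, spc 2 or spc 3 (0.0885 to 0.262). The jasmonate repressor JAZ1 fell by 0.54 ± 0.15 (limma adjusted p = 0.0443) and the synthesis gene OPR3 was higher by 0.35 ± 0.10 (limma adjusted p = 0.0463), among 27 tested members. JAZ1 lost its call without every library but spc 1 (0.0742 to 0.283), and OPR3 without ing1 2, ing1 3, spc 1 or spc 3 (0.0819 to 0.237). The cold regulators CBF1 (-1.04 ± 0.32, limma adjusted p = 0.0769) and CBF2 (-1.19 ± 0.37, limma adjusted p = 0.0912) did not pass, and RHL41 was the single call among 19 cold genes, of which 6 were lower and 0 higher at an unadjusted p under 0.05 (limma), with 2 calls without ing1 1 or spc 2.

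The wild type and the other mutants were set beside the 2 genotypes for the called genes, as a description without a test, since the calls were chosen on ing1 and spc. Of the 321 genes lower in ing1, the Col-0 mean lay below both mutants for 213, between them for 69 and above both for 39, and the median difference from Col-0 was 0.35 in ing1 and 0.92 in spc. The mean signal of STZ went from Col-0 (117 ± 41.8) through ing1 (587 ± 77.9) to spc (2347 ± 245), and that of DIC2 from 84.5 ± 11.4 through 1545 ± 74.0 to 4006 ± 494 (SD, n = 3 each). In these genes ing1 thus stood above the wild type and spc further above it. HB-7 was among the genes outside this order, with 1879 ± 217 in Col-0 above the 1360 ± 28.7 of ing1. So were ABF1 (2207 ± 109 in Col-0, 1830 ± 23.2 in ing1) and ELF4 (4425 ± 131 and 3781 ± 29.0). Of the 200 genes higher in ing1, Col-0 lay below both for 77, between for 48 and above both for 75.

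On the 321 genes lower in ing1, most other genotypes were nearer to ing1 than to spc, and ada2a was not. Col-0 was nearer to ing1 for 246 (76.6%), ada2b for 258 (80.4%) and gcn5 for 256 (79.8%), beside 55.5%, 57.2% and 55.0% over all tested genes. Among mutants of the plant-specific complex, the sdrl mean was nearer to ing1 than to spc for 303 (94.4%), the eaf6 mean for 288 (89.7%) and the ada2a mean for 93 (29.0%), where over all tested genes these shares were 60.8%, 60.1% and 49.7%. ACS6 averaged 4358 in spc and 4285 in ada2a, but 1121 in ing1, 936 in sdrl and 719 in eaf6. CYP707A3 averaged 1790 in spc and 1624 in ada2a, but 569 in ing1, 686 in sdrl and 442 in eaf6. In both genes ada2a lay with spc, and sdrl and eaf6 on the side of ing1, as did Col-0 and gcn5, which averaged 419 and 585 for ACS6 and 85.8 and 203 for CYP707A3. The ada2b mean was nearer to spc for ACS6 (3223 ± 1522) and nearer to ing1 for CYP707A3 (520 ± 230, SD, n = 3 each). The double mutants that carry the spc mutation were nearer to ing1 than to spc alone, ada2a spc for 293 of the 321 (91.3%) and spc ing1 for 268 (83.5%), beside 57.4% and 53.4% over all tested genes. ACS6 averaged 570 in ada2a spc and 1009 in spc ing1, both under the level of each spc library. For the 200 genes higher in ing1, sdrl was nearer to ing1 for 181 (90.5%), eaf6 for 149 (74.5%), spc ing1 for 128 (64.0%) and ada2a for 102 (51%). The ada2a spc mean was nearer to ing1 for 145 (72.5%), Col-0 for 106 (53%), ada2b for 91 (45.5%) and gcn5 for 75 (37.5%).

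**Figure D5:**
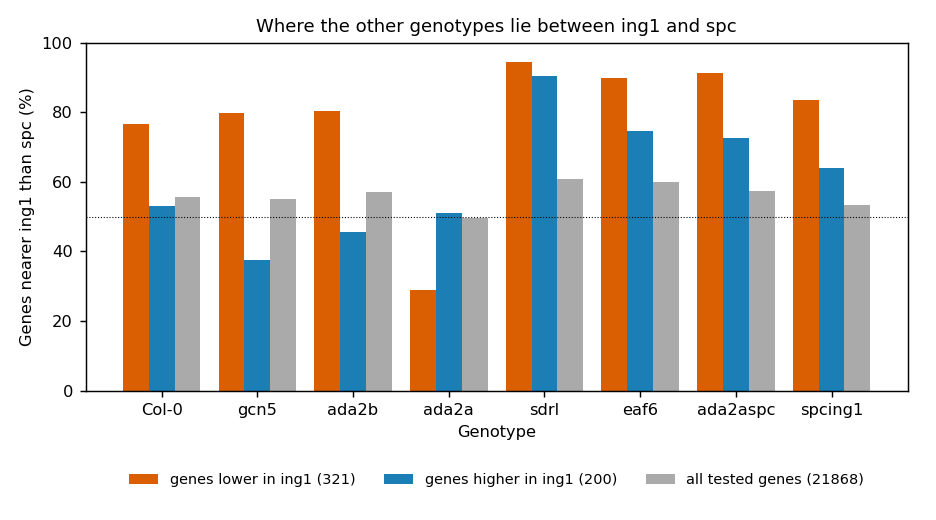
Share of genes whose mean in each of the other 8 genotypes was nearer to ing1 than to spc, for the 321 genes lower in ing1, the 200 higher and all 21868 tested. The dotted line marks 50%, and for the lower genes ada2a (29.0%) is the genotype below it, whereas sdrl reaches 94.4%.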

How the data were processed

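Total RNA of whole seedlings was sequenced as 150-bp paired reads, per the labels. The deposited table holds a normalised signal per gene and library, which the authors made with bcl2fastq, HISAT2 and edgeR on TAIR10, per the submitters' processing notes. Versions, settings, strand use and exact scaling are not given in the sources used here. Because values are not whole numbers, the depth behind each is unknown, and a count test was not used. Differences were tested with limma 3.58.1 in R 4.3.3 on log2(signal + 1), which understates changes of low genes, with a term for each of 10 genotypes over all 30 libraries (20 residual degrees of freedom), a variance trend and Benjamini-Hochberg adjustment at 0.05. Genes needed a value of at least 10 in 3 libraries. Symbols, exons and upstream stretches came from RefSeq TAIR10.1, in which all 32548 loci were found.

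The comparison and the 49 gene lists were chosen with earlier results of these data known. Of 1380 list entries 1210 matched a gene. Named genes passed the test, had a mean of at least 50 in the higher genotype, a symbol and genotypes without overlap: the 12 largest rises and falls, with up to 4 called members and 2 others of the largest fold from each of 20 lists, and the complex subunits. Names without a symbol, and members listed only to complete a count, were chosen after their values were seen. Alternatives were another scaling, pseudocount, filter, set of libraries, replicate block, no trend, and leaving out each library. Libraries with the same replicate number did not deviate together (r = 0.0139, 0.0453 and -0.0132), so no pairing was used.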

Additional observations from a re-analysis of the deposited data

How the results depend on the processing

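Under the other scalings, the pseudocount of 16, both filters, the fit of only the 6 libraries and the fit without a trend, the number of differing genes stayed between 410 and 670, within 1.5 times of 521. ING1 was lower in ing1 under each of these and each left-out library (-2.18 to -1.98 with a library left out). Dividing by column totals gave 237 higher and 301 lower genes and moved the median of all genes from -0.01 to 0.01, and the fit of only the 6 libraries gave 189 higher and 481 lower. The labels do not say whether the replicate numbers pair the libraries. With a replicate block the counts were 496 over all 30 libraries and 833 over only the 6, beside 521 and 670 without it. Leaving out a library gave 254 to 382 differing genes, 18 to 29 at least 2-fold higher and 56 to 66 at least 2-fold lower, with fewer samples in each such fit. Some differences that never passed changed sign when a library was left out: ZAT11 (-1.13 to 0.19), ADA2B (-0.035 to 0.050), HAG1 (-0.18 to 0.016), AOX1D (-0.075 to 1.45), ATGA2OX1 (-0.079 to 1.62), WDR5a (-0.070 to 0.45) and SGF29b (-0.28 to 0.0047). Among named genes, the block over all 30 libraries ended 4 calls (IAA19, XTH4, RVE2 and LHCB4.2). The fit without a trend ended 12 (CML37, CYP71B22, ERF2, IAA19, JAZ1, LHCB2.3, OPR3, RVE2, UCP5, XTH4, XTR6 and ZAT7), and testing without the filter 10 (CML37, CYP71B22, IAA19, JAZ1, LHCB4.2, OPR3, RVE2, XTH4, XTR6 and ZAT7). Column totals ended 1 (JAZ1), the pseudocount of 16 ended 1 (LHCB4.2) and added 4, and the fit of only the 6 libraries ended 2 (PSRP3/2 and LHCB4.2) and added 10, TCH2, ERF13, ZF2 and ACS4 among them. No interval can be given for single values, because the depth behind the deposited signal is unknown.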

Other observations

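Several gene groups that define other nutrient, hormone and growth states gave no call by limma. Over all tested genes, 2.38% were called and 3142 of 21868 were at an unadjusted p under 0.05 (limma). Lists of this size can hold 0 calls at that share, so these counts of 0 are no result about those states. Cytokinin genes gave 0 calls of 28 (median 0.01), with 3 at an unadjusted p under 0.05, and hypoxia genes 0 of 14, with 1. Iron deficiency genes gave 0 of 31 (median -0.09, 5 at an unadjusted p under 0.05), phosphate starvation genes 0 of 31 (median -0.06, 2 at an unadjusted p under 0.05) and cell cycle genes 0 of 44 (median -0.01, 3 at an unadjusted p under 0.05). Of 28 genes of root identity, 0 were called and 1 was at an unadjusted p under 0.05. The 14 reference genes often used for normalisation gave 0 calls, 0 at an unadjusted p under 0.05 and a median of -0.01.

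Called genes lay on all 5 chromosomes, at 1.22% to 1.63% of tested genes for those lower in ing1 and 0.805% to 1.23% for those higher. Among the lower genes, 26 stood in 12 runs of neighbouring called genes, and among the higher genes 8 stood in 4 runs. Picked after values were seen, 3 neighbouring TIR-domain genes, a family of immune receptors and their relatives, were lower on chromosome 1 between 27432178 and 27439209 (TAIR10.1): the differences were -0.99 for AT1G72900, -1.76 for AT1G72910 and -1.52 for AT1G72920. Their sequences are related, so reads may be split between them. The neighbours ERF2 and ERF5 on chromosome 5 (-0.56 and -1.41) formed another such run.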
